A study of Mus musculus with 10 samples.

Results

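Small nucleolar RNAs (snoRNAs) and small Cajal body RNAs (scaRNAs) were followed as the genes whose annotated type in the count table was snoRNA or scaRNA, whatever their level. The table listed 50 of them among 23080 genes, 42 typed snoRNA and 8 typed scaRNA. Scarna9 carried the type snoRNA and was grouped here with the scaRNAs by its symbol, which gave 41 snoRNAs and 9 scaRNAs. GENCODE release M21 annotates 1507 snoRNA and 51 scaRNA genes, so the table held 3.21% of the annotated set, against 76.1% of protein-coding genes. By type it held 2.79% of snoRNA and 15.7% of scaRNA genes. Genes of the types snRNA, misc_RNA, miRNA and lincRNA stood at 2.0%, 4.45%, 1.23% and 14.9%. The tissue was the anterior fontanelle (AF) of mouse embryos at E18.5, which spans several tissues, calvarial bone among them. There were 5 libraries labelled wild type, called control-labelled here, and 5 labelled Wnt1-Cre; Fgfr2fl/fl, called mutant-labelled, in which Cre driven by Wnt1 acts in neural crest-derived cells and other cells of the tissue keep Fgfr2. The controls carry no other allele or agent in the labels, and strain and sex are not given there. The study describes the embryos as littermate pairs, and the labels do not say which libraries form a pair.

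SnoRNAs are stable noncoding RNAs of the nucleolus, most of them cut out of the introns of host genes after splicing. Box C/D snoRNAs assemble with fibrillarin and guide 2′-O-methylation of ribosomal RNA (rRNA), and box H/ACA snoRNAs assemble with dyskerin and guide pseudouridylation. A few, among them U3 (Rnu3 genes), U17 (Snora73 genes) and U22 (Snord22), act in cleavage or maturation of the precursor of the small-subunit rRNA instead of in modification. ScaRNAs share these boxes but stay in Cajal bodies, where they guide the modification of spliceosomal small nuclear RNAs. Bone-forming cells make much ribosome and extracellular matrix protein, and these RNAs serve the ribosome and spliceosome of every cell.

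By symbol, 16 members were box C/D snoRNAs, 9 were H/ACA snoRNAs, 9 were scaRNAs, and 16 were snoRNAs known only by a predicted-gene (Gm) number. Their annotated lengths ran from 65 to 414 bases with a median of 137.5. An intron of a host gene on the same strand held 32 of them, 10 lay on a host exon, and 8 had no host in M21, although RefSeq (GRCm38.p6) places a long noncoding RNA over Snora57 and another over Snord104. The hosts numbered 33, among them 8 ribosomal protein genes that carried 10 members. Sequences of some of the snoRNAs named below, and of no scaRNA, are given here from GENCODE M21 (GRCm38), 5′ to 3′ with T for U. The first is a box C/D snoRNA, Snord104, at chr11:106500993-106501062 on the plus strand, with its C box (TGATGA) and D box (CTGA) in capitals.
Snord104: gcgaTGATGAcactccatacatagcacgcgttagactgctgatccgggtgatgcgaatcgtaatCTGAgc
Snord22 is the box C/D member with the most counts after U3 and lies at chr19:8725866-8725991, plus strand, on an exon of Snhg1, a noncoding host of several snoRNAs. Its D box is in capitals, and the C box letters were not found within 20 bases of its 5′ end.
Snord22: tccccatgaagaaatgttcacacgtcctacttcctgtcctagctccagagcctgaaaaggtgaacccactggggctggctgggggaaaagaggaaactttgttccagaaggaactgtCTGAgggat
Snora57 (chr19:8888538-8888685) and Snora73b (chr4:132352322-132352526), both on the minus strand, are H/ACA members, shown with the H box (ANANNA) and the ACA 3 bases before the 3′ end in capitals.
Snora57: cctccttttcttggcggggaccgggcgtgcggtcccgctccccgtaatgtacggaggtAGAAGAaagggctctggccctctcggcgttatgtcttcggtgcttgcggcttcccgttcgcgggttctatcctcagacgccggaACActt
Snora73b: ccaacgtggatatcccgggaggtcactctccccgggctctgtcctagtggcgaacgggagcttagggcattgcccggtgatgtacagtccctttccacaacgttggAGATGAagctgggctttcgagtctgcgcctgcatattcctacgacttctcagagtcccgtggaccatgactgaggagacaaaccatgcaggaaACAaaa
Its neighbour Snora73a (chr4:132352775-132352979, minus strand) is the near copy of Snora73b, and capitals mark the 7 of 205 positions at which Snora73a differs from it.
Snora73a: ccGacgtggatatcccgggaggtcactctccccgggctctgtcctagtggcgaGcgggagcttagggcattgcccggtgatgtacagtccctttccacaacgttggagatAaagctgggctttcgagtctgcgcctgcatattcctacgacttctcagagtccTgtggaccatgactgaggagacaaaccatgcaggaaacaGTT
The U3 genes are shown as Rnu3a (chr10:40258467-40258680, plus strand) and Rnu3b1 (chr11:87443237-87443452, plus strand), with capitals where each differs from the other in an alignment of 219 columns (32 differing, 85.4% identity).
Rnu3a: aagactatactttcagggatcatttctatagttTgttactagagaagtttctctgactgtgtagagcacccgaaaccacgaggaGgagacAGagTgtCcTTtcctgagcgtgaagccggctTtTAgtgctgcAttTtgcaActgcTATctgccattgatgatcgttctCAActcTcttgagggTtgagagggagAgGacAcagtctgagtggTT
Rnu3b1: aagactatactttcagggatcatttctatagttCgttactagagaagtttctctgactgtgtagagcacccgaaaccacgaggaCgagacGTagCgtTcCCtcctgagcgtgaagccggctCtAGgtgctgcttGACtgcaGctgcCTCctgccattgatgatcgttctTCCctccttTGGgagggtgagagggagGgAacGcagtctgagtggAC
Rnu3b1, Rnu3b2, Rnu3b3 and Rnu3b4 are the same 216 bases, and the table gave all of them the same value in every library, so that their reads had been divided evenly and they were read as 1 RNA, which gave 47 RNAs from the 50 rows. The C and D boxes, each searched on the RNA strand within 20 bases of the 5′ and 3′ end, were both found in 19 members (38%), against 0.122% of other M21 transcripts in the same range of lengths. The H box with the ACA was found in 18 members (36%), against 1.15%. Among all M21 snoRNA and scaRNA transcripts the shares were 20.15% and 16.37%. Since these boxes belong to the classes, the contrast with other transcripts was set in advance. Of the 16 unnamed snoRNAs, 6 held C and D boxes and 8 held the H box and ACA.

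The libraries held 20774667 to 28515434 counts each. Genes of type rRNA took from 18.6% (mutant-labelled library 4) to 33.5% (mutant-labelled library 5) of them, nearly all in 1 gene, CT010467.1, with exact binomial 95% intervals reaching no farther than 0.02 points from each share. All RNA had an integrity number above 8 according to the labels. Fgfr2, the targeted gene, was higher in the mutant-labelled libraries, at 318 CPM against 200 CPM (log2 fold change 0.67, SE 0.09, edgeR's quasi-likelihood test with Benjamini-Hochberg adjustment, adjusted p = 0.0487), a call that most alternatives lost, with an exact permutation p of 0.00794 for log2 CPM (two-sided, the smallest possible). That direction goes against the label, and since the count covers the whole gene, exons outside the floxed segment included, it does not check the labels. Directions below are given by label. Osteoblast markers ran lower under the mutant label, with 0 of 10 log2 fold changes above 0, a median of -0.31 and 6 with an unadjusted p under 0.05. At an adjusted p of 0.05, edgeR and limma voom called 0 of the 10 and DESeq2's Wald test 4. Examples were Ibsp (-0.58, SE 0.15), Dmp1 (-0.58, SE 0.14) and Spp1 (-0.38, SE 0.11), all matrix proteins of bone. The 4 fontanelle connective tissue markers were all higher, each with an unadjusted p under 0.05, and at an adjusted p of 0.05 edgeR and limma voom called 0 and DESeq2's Wald test 2 of them. All 9 neuron markers had log2 fold changes above 0 (median 0.80, 2 with an unadjusted p under 0.05, 0 called by edgeR, DESeq2's Wald test or limma voom), but 1 library carried much of this. Their sum was 699 CPM of the counts without rRNA in mutant-labelled library 2, against 106 to 322 CPM in the other 4 and 101 to 244 CPM under the control label. Without that library the median difference in log2 CPM went from 0.52 to 0.14, with 6 of 9 above 0. The part of this difference in composition in the values by label was not tested.

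Few of these RNAs were captured. The 50 members had 2903.5 counts together in all 10 libraries, and the median row had 21.2. With Rnu3b as 1 RNA, 35 of the 47 RNAs reached 10 counts in no library, and only 14 had a count in every library. The scaRNAs Gm22009 (565 counts) and Gm23119 (395) led, followed by Rnu3b (275.5) and Scarna2 (275), and the 9 scaRNAs made up 51.7% of all member counts. By library, the summed member counts were 319.9, 252.2, 230.9, 377.0 and 303.1 in control-labelled libraries 1 to 5 and 209.5, 343.8, 242.5, 384.6 and 239.9 in mutant-labelled libraries 1 to 5. The lowest, 209.5, had an exact Poisson 95% interval of 182 to 240, and the highest, 384.6, one of 347 to 425. These intervals cover counting error only. On their own length, Gm23119 was highest at 11.5 CPM per kilobase, followed by Scarna17 at 8.79, Gm22009 at 6.82, Snord22 at 5.91, Rnu3b as 1 RNA at 5.20 and Snord104 at 4.36.

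Host genes, assigned by position alone, gave a second yardstick. Of the 39 RNAs with a host, 2 had a level per kilobase at or above that of the host's exons, and the median ratio was 0.0320. These were Gm22009, at 1.35 times its host Kpna4 (an importin alpha), and Rnu3b, which lies within Tex14. The exons of Tex14 were near 0 (0.0441 CPM per kilobase), so the ratio for Rnu3b says little. Whether U3 is made from Tex14 introns was not tested. Of the host's level per kilobase, the sparse Scarna9 reached 0.981 (16 counts) and Snord89 0.913 (10 counts), Snord22 0.569 and Snora73b 0.545. A total of 13 members overlapped exon bases of another gene on the same strand, 10 of them the host's own exons, and 8 of the 13 had values that were not whole numbers in some library. The other 3 overlapped another gene within the host's intron (Scarna13 Mir3069, Snora34 Mir1291, Gm24888 Gm47284). Reads of these 13 could not be separated from those of the gene they overlap, and the same limit applied between the Snora73 copies and among the U3 genes.

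The spread between libraries differed among members. It was measured as the variance over the 10 libraries divided by that expected from counting error alone, so that a value near 1 shows no more than counting error. For the same relative spread this index rises with the counts. A value near 1 in a sparse RNA can therefore hide a real spread, and the index partly ranks abundance. With Rnu3b as 1 RNA, the index was above 2 in 16 of the 47, between 1 and 2 in 18, and 1 or less in 13. Among the 9 scaRNAs, 3 were at 1 or less (Scarna17 0.744, Scarna2 0.749, Scarna6 0.755) and 6 above 1, of which Gm22009 (2.36) and Scarna9 (2.64) were highest. Snora57 stood at 0.832 and Snord104 at 0.542, while Snora73b reached 2.23, Snord22 7.79 and Rnu3b 10.6. The 2 highest in sparse RNAs were Gm22988 (8.33) and Gm26447 (7.28), which lie on exons of Eif4a1 and Eif4a2, translation initiation helicases. Of the 13 members that overlapped exons on their own strand, 8 were above 2 (median 2.83), and of the 32 that overlapped none and were not U3, 7 were (median 1.45). Counts of a few reads give an uncertain index, and no test was made of this difference.

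**Figure D1:**
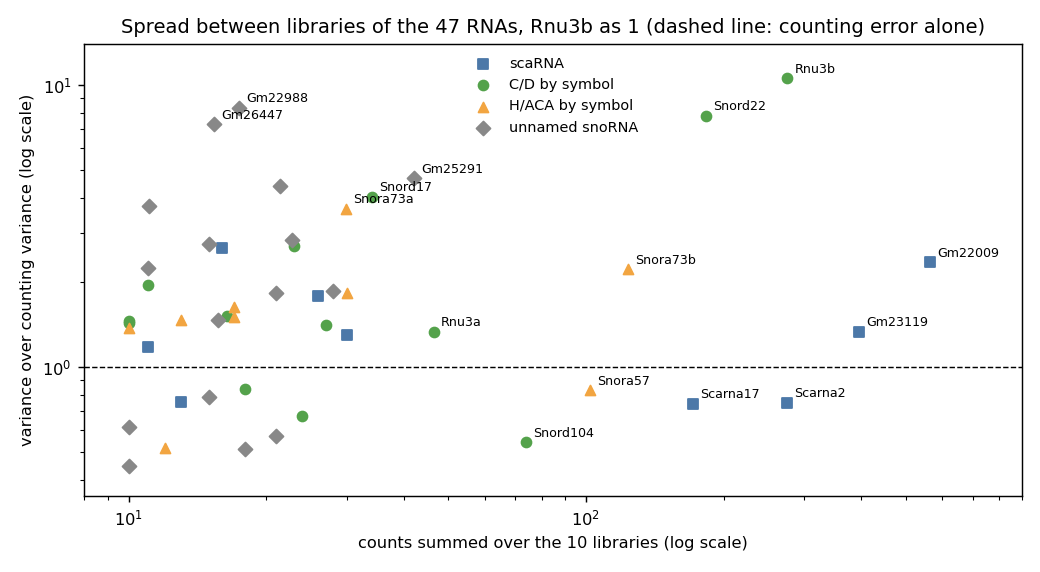
Counts of each of the 47 RNAs, Rnu3b as 1, summed over 10 libraries (x, log scale) against the ratio of variance between libraries to counting variance (y, log scale), with a dashed line at 1 and symbols by class. Rnu3b stands at 10.6 with 275.5 counts and Snord22 at 7.79 with 183, while Scarna2 (0.749) and Scarna17 (0.744) lie below the line with 275 and 171 counts.

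The first comparison asked whether any member differed between the labels. Of the 50, 7 had enough counts for the test: 4 scaRNAs (Gm22009, Gm23119, Scarna2, Scarna17), the H/ACA snoRNAs Snora57 and Snora73b, and the box C/D snoRNA Snord22. They held 62.5% of the members' counts. None of the 7 passed at an adjusted p of 0.05 with edgeR's quasi-likelihood test, DESeq2's Wald test or limma voom, and 1 of 7, Gm22009, had an unadjusted p under 0.05 with each of the tools. Among all 16267 genes tested, edgeR called 3 (0.0184%) and DESeq2's Wald test 97 (0.596%). An unadjusted p under 0.05 was found for 7.49% with edgeR, 7.66% with DESeq2's Wald test and 7.32% with limma voom. The median log2 fold change of the 7 was 0.03, with 4 above 0, against 0.00 for all genes, of which 50.3% were above 0. Groups did not overlap in 0 of the 50 members and in 1.48% of the genes tested. The n = 5 per label counts embryos' libraries by the series' design text, and in bulk tissue fewer cells of a type and less RNA per cell cannot be told apart.

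One scaRNA, Gm22009, had the lowest p of the 7. This RNA of 343 bases in an intron of Kpna4 (chr3:69085105-69085447, minus strand) was at 2.15, 1.82, 2.51, 1.84 and 1.73 CPM in control-labelled libraries 1 to 5 and at 2.93, 2.27, 2.27, 2.89 and 3.003 CPM in mutant-labelled libraries 1 to 5. All but 1 of the control-labelled values lay below every mutant-labelled one, the exception being control-labelled library 3. Its log2 fold change was 0.41 (SE 0.16), with an unadjusted p of 0.0269 and an adjusted p of 0.634 in edgeR's quasi-likelihood test. The adjusted p ranged from 0.562 to 0.951 over the alternatives. The exact permutation test of its log2 CPM over all 252 groupings gave p = 0.0317 (two-sided), where 0.00794 is the smallest p possible. Kpna4 itself was at 44.7 ± 4.71 and 45.9 ± 2.05 CPM (SD, n = 5), and the log2 ratio of Gm22009 to it was 0.36 higher in mutant-labelled libraries (exact permutation test, two-sided, p = 0.0556).

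Scarna2, which guides 2′-O-methylation of U2 small nuclear RNA, was at 1.06 ± 0.225 CPM under the control label and 1.21 ± 0.0905 CPM under the mutant label (SD, n = 5). The log2 fold change was 0.20 (SE 0.20, edgeR's quasi-likelihood test, adjusted p = 0.854). Control-labelled library 1, at 0.704 CPM, was the lowest of the 10, and the others lay between 1.02 and 1.32 CPM. Scarna17, a guide for U4 small nuclear RNA, was at 0.687 ± 0.177 and 0.701 ± 0.131 CPM (SD, n = 5), a log2 fold change of 0.03 (SE 0.25). Gm23119, its neighbour on chromosome 18, was at 1.62 ± 0.298 and 1.61 ± 0.348 CPM (SD, n = 5), a log2 fold change of -0.01 (SE 0.21). The sign of both turned with the library left out, and the ranges of the groups overlapped. The remaining scaRNAs were too low to test, with 30 counts in all for Scarna13, 26 for Gm22442, 16 for Scarna9, 13 for Scarna6 and 11 for Gm25820.

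Summed, the 9 scaRNAs held 741 counts under the control label and 761 under the mutant label. Their summed level ran from 5.49 to 6.05 CPM (median 5.78) in the former and from 6.14 to 7.07 CPM (median 6.36) in the latter, so that the groups did not overlap, as in 1.48% of the single genes tested. Without Gm22009 the ranges were 3.27 to 4.21 and 3.14 to 4.17 CPM and overlapped nearly throughout. No test was made of the sum, which was formed from members whose values were known. Summed markers of fontanelle connective tissue (Scx, Tnmd, Mkx, Matn4; all 4 detected) moved the same way, from 206 to 250 CPM of the counts without rRNA under the control label and from 278 to 388 CPM under the mutant label. Their correlation with the summed scaRNA level over the 10 libraries was 0.75, the highest of the gene lists compared. The other lists ran from -0.44 (erythroid) to 0.39 (neuron). Both sums differed by label without overlap, so this correlation cannot be told apart from the difference by label. Their part in the scaRNA sum was not tested.

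Of the 41 snoRNAs, 3 could be tested, and none of these passed by label. Snord22, required in the maturation of the small-subunit rRNA, was at 0.948, 0.476, 0.158, 1.32 and 0.474 CPM in control-labelled libraries 1 to 5. In mutant-labelled libraries 1 to 5 it was at 0.249, 1.12, 0.425, 1.67 and 0.614 CPM. Both groups held values near the top and near the bottom of the range. The log2 fold change was 0.26 (SE 0.56, edgeR's quasi-likelihood test, adjusted p = 0.944), and leaving out mutant-labelled library 4 turned it to -0.16. Its host Snhg1 was at 31.5 ± 0.807 and 30.3 ± 3.14 CPM (SD, n = 5), and the log2 ratio of Snord22 to Snhg1 was 0.33 higher in mutant-labelled libraries (exact permutation test, two-sided, p = 0.619). Snord22 lies on an exon of Snhg1, so this ratio also depends on how reads were divided between them. It cannot show whether the RNA changed apart from its host.

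Snora73b, a copy of U17, was at 0.732, 0.181, 0.595, 0.549 and 0.803 CPM under the control label and at 0.279, 0.556, 0.308, 0.698 and 0.371 CPM under the mutant label (libraries 1 to 5 of each). The group ranges overlapped, with control-labelled library 2 the lowest of all 10. The log2 fold change was -0.37 (SE 0.41, edgeR's quasi-likelihood test, adjusted p = 0.872), and the log2 ratio to its host Snhg3 was -0.84 (exact permutation test, two-sided, p = 0.167). Snora73a, which overlaps an Snhg3 exon, was listed at under 0.001 counts in 5 of the 10 libraries and had 29.8 counts in all, so the share of U17 reads between the copies was itself uncertain. Snora57, an H/ACA guide, was at 0.438 ± 0.133 and 0.401 ± 0.122 CPM (SD, n = 5), a log2 fold change of -0.11 (SE 0.32). Leaving out control-labelled library 5 or mutant-labelled library 1 turned its sign, to 0.06 and 0.07.

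**Figure D2:**
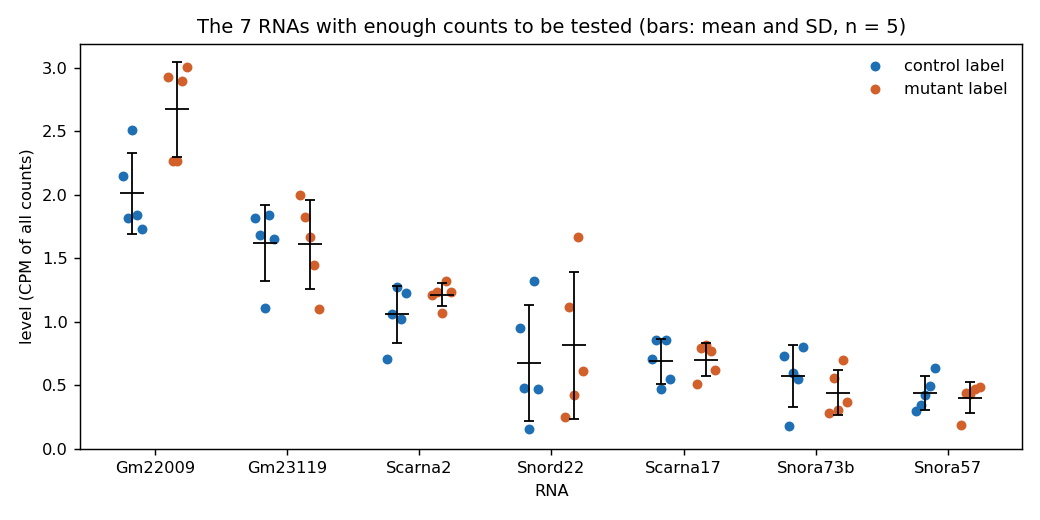
Level in CPM of all counts (y) of the 7 RNAs tested (x), each point a library, blue for control-labelled and orange for mutant-labelled, with the mean and SD (n = 5) as black bars. The points of the labels overlap for every RNA, least for Gm22009 (means 2.01 and 2.67 CPM).

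The U3 genes were below the filter one by one and were read as a sum. They had 37, 18, 20, 65 and 39 counts in control-labelled libraries 1 to 5 and 3, 54, 17, 47 and 22 in mutant-labelled libraries 1 to 5. Mutant-labelled library 1 was the lowest and control-labelled library 4 the highest, and the ranges of the labels overlapped. The summed level was 1.43 ± 0.799 CPM under the control label and 1.20 ± 0.857 CPM under the mutant label (SD, n = 5). Snord104, a box C/D guide without a host, was more even, with 38 counts under the control label and 36 under the mutant label. With no filter, 2 of the 50 members had an unadjusted p under 0.05 between labels, Gm22009 and Gm25820 (2 against 9 counts), where 7.01% of all genes did.

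Over all 50 members the summed level was 11.7 ± 2.64 CPM under the control label and 12.1 ± 2.81 CPM under the mutant label (SD, n = 5). The mean log2 difference was 0.05, smaller than the pooled SD between libraries of 0.32, and it was -0.04 without control-labelled library 2 and -0.05 without mutant-labelled library 4.

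The second comparison set the members against each library's rRNA share, with levels taken relative to the counts outside rRNA genes. The summed level per library was 16.5, 11.98, 13.6, 21.4 and 17.8 CPM in control-labelled libraries 1 to 5, whose rRNA shares were 26.0%, 28.1%, 32.1%, 25.9% and 20.8%. In mutant-labelled libraries 1 to 5 it was 13.6, 19.1, 14.4, 22.9 and 14.8 CPM, with shares of 33.2%, 28.5%, 33.0%, 18.6% and 33.5%. The library with the lowest share, mutant-labelled library 4, had the highest member level, and the 4 libraries with shares above 32% all lay between 13.6 and 14.8 CPM. Control-labelled library 2, with 28.1% rRNA and 11.98 CPM, was lower than these.

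**Figure D3:**
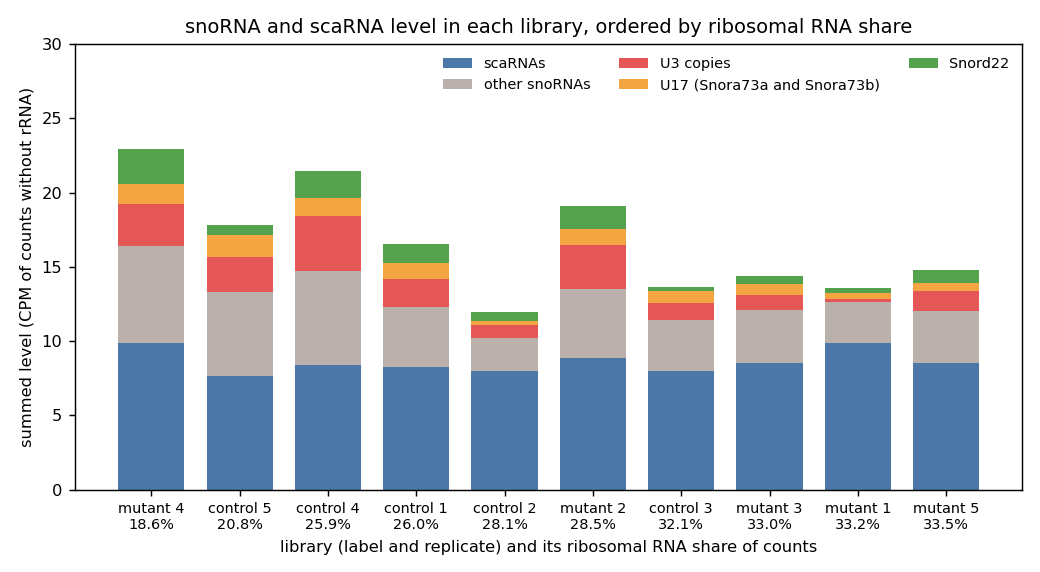
Summed CPM of the counts without rRNA (y) in the 10 libraries (x), ordered from the lowest to the highest rRNA share, with stacked colours for scaRNAs, U3, U17, Snord22 and other snoRNAs. The scaRNA part stays between 7.65 and 9.88 CPM, and the total runs from 11.98 to 22.9 CPM.

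Over the 10 libraries, Pearson's r between the log2 summed level and the rRNA share was -0.72 and Spearman's rho was -0.65. Without the 2 libraries farthest from the median share, mutant-labelled 4 and control-labelled 5, r was -0.56. These are descriptions with no test, over libraries that share their depth and a fixed total. Among members that overlapped no exon on their strand and were not U3, r was -0.51, and -0.15 without the same 2 libraries, so in those RNAs the relation rested on them. RNA by RNA, 33 of the 47 had a negative r, as did 48.8% of all genes outside rRNA, with a median of -0.32 and a range from -0.80 to 0.45.

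The summed 41 snoRNAs ran from 3.73 CPM in mutant-labelled library 1 to 13.02 CPM in control-labelled library 4, with r = -0.73 and rho = -0.67 against the rRNA share. The 9 scaRNAs, of nearly equal total counts (1502 against 1401.5), ran from 7.65 to 9.88 CPM, with r = 0.01 and rho = 0.20. The variance of the snoRNA sum between libraries was 26.2 times that expected from counting, and that of the scaRNA sum 1.11 times. Both values depended on the members summed. Without Gm22009 the other 8 scaRNAs had r = -0.43, rho = -0.43 and a variance of 0.858 times that from counting, so the r near 0 rested on that 1 member. Without U3 and the members that overlap exons, the remaining 24 snoRNAs had r = -0.62, or -0.39 without the 2 libraries farthest from the median share, and a variance of 6.62 times that from counting. The slopes of log2 level per 10 percentage points of rRNA share were -1.46 for U3, -1.02 for U17, -1.27 for Snord22, -0.70 for the other snoRNAs, 0.00 for the scaRNAs and -0.12 for the scaRNAs without Gm22009. Single members of both classes lay on either side, with the snoRNAs Snora57 and Snord104 at indices under 1 and the scaRNA Gm22009 above Snora73b. The difference between the classes was not tested.

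**Figure D4:**
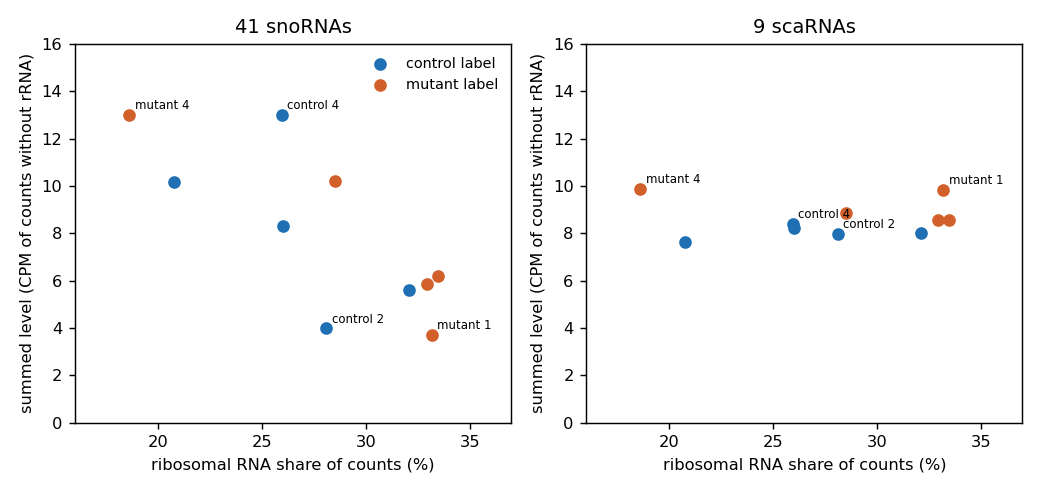
Ribosomal RNA share of counts in percent (x) against summed CPM of the counts without rRNA (y) for 41 snoRNAs (left) and 9 scaRNAs (right), 1 point a library, blue for control-labelled and orange for mutant-labelled. The snoRNA sum runs from 3.73 to 13.02 CPM and the scaRNA sum from 7.65 to 9.88 CPM.

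In a fit of all genes outside rRNA on the share, with the label as a term, none of the 7 members passed at an adjusted p of 0.05 (edgeR's quasi-likelihood test), where 0.117% of 16200 genes did, 8 with a positive and 11 with a negative slope. That number of genes was itself unstable, from 0 to 47 when a library was left out. Snord22 had the steepest slope of the 7, -1.31 (SE 0.49, unadjusted p = 0.0228, adjusted p = 0.320), and was the only 1 of the 7 with an unadjusted p under 0.05, against 11.6% of all genes. Its adjusted p ranged from 0.268 to 0.938 over the alternatives, and its slope from -1.75 to -0.50. Snora73b followed at -0.73 (SE 0.37, adjusted p = 0.484) and Snora57 at -0.35 (SE 0.33, adjusted p = 0.755). The scaRNAs were nearer 0, with Scarna17 at -0.16 (SE 0.28), Gm23119 at -0.09 (SE 0.24), Scarna2 at -0.06 (SE 0.21) and Gm22009 at 0.09 (SE 0.17). Of the 7, 6 slopes were negative, with a median of -0.16, against 50.1% and a median of 0.00 over all genes. With no filter, 33 of the 47 RNAs had a negative slope (median -0.54, the identical Rnu3b rows taken once), against 47.9% of all genes (median 0.01). Of the 50, 5 had an unadjusted p under 0.05 in that fit, namely Snord22, Snord34, Gm22988, Gm25291 and Gm26447, all with negative slopes, where 9.54% of genes did.

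Other small structured RNAs (types snRNA, misc_RNA, ribozyme and scRNA) had negative slopes as well. Of the 12 rows tested, 12 had negative slopes, against 50.1% of all genes. A negative slope with an unadjusted p under 0.05 was found in 10, against 6.10% of all genes. The median slope was -1.52. Several rows share reads as copies, among them Gm23849, Gm23971 and Gm24950 with the same values. These counts and the median therefore weigh some RNAs repeatedly. Only Rn7sk, the RNA of the transcription-elongation regulator 7SK, passed the adjusted test (-1.08, SE 0.15, edgeR's quasi-likelihood test, adjusted p = 0.0313). With the replicate block, or without control-labelled library 1 or 2 or mutant-labelled library 3, 4 or 5, no gene passed, Rn7sk included. Rpph1, the RNA of RNase P, had a slope of -1.48 (SE 0.27, adjusted p = 0.0915), and Rn7s1, a signal recognition particle RNA that shared its reads evenly with Rn7s2, one of -1.54 (SE 0.31, adjusted p = 0.0926). Rmrp, the RNA of RNase MRP, which also acts on the rRNA precursor, was at 0.00 (SE 0.21). The correlation over libraries between the summed log2 levels of these small RNAs and of the snoRNAs was 0.92, and with the scaRNAs it was 0.11. The variance of the scaRNA sum was only 1.11 times that from counting, which leaves little to correlate.

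**Figure D5:**
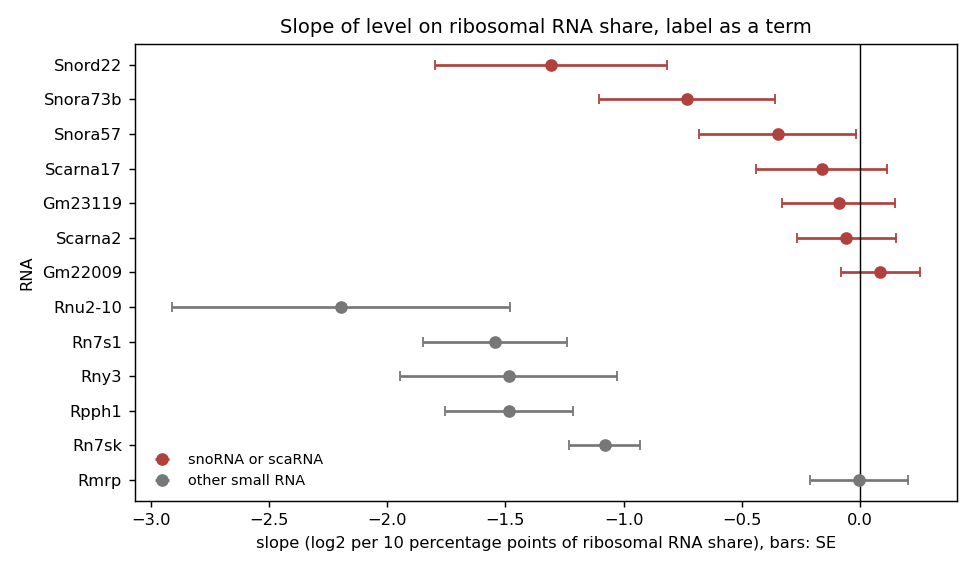
Slope of log2 level per 10 percentage points of rRNA share (x), with SE bars, for the 7 snoRNAs and scaRNAs tested (red) and 6 other small RNAs (grey). Snord22 lies at -1.31 and Rn7sk at -1.08, while Gm22009 lies at 0.09 and Rmrp at 0.00. Rnu2-10 shared its reads evenly with 3 other rows.

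Proteins that carry and assemble these RNAs moved little by label. None of the 4 box C/D core proteins (Fbl, Nop56, Nop58, Snu13), 4 H/ACA core proteins (Dkc1, Nhp2, Nop10, Gar1), 9 assembly factors, 13 Cajal body and nucleolar carriers, 15 RNA polymerase I genes or 19 noncoding snoRNA hosts tested passed between labels in edgeR's quasi-likelihood test. At an unadjusted p under 0.05, 1 carrier and 1 noncoding host were higher and none of these genes was lower. The median log2 fold changes of these lists lay between -0.02 and 0.05. Against the rRNA share none passed either, and at an unadjusted p under 0.05 with a negative slope, which 6.10% of all genes had, there were 3 of 4 C/D core proteins, 1 of 4 H/ACA core proteins, 3 of 9 assembly factors, 4 of 13 carriers, 3 of 15 polymerase genes and 5 of 19 noncoding hosts. A positive slope at that p was found for 1 carrier. The slopes were -0.15 for Fbl (the methyltransferase fibrillarin), -0.27 for Nop56, -0.27 for Nop58 and -0.26 for Dkc1 (the pseudouridine synthase dyskerin), several times shallower than that of Snord22. Nucleolin (Ncl), a nucleolar carrier, had the lowest adjusted p of those named, 0.0978, with a slope of -0.33 (SE 0.07). Of the 33 hosts of members, 32 had enough counts to test (Tex14 did not). At an unadjusted p under 0.05, 5 of the 32 had a negative slope and 1, Sec24a, a positive one (0.24, SE 0.08), with a median slope of -0.08. By label, 3 of the 32 were higher and 0 lower at that p, where 3.68% of all genes were higher and 3.82% lower, and none passed the adjusted test.

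All 10 osteoblast markers were detected, and their sum, most of it Col1a1, was at least 75542 CPM of the counts without rRNA in every library. Skeletal muscle markers (Acta1, Ckm, Myh3, Myh8, Mylpf, Tnnt3, Myog; all 7 listed) moved with the snoRNAs in the opposite direction. Their sum ran from 25.6 to 992 CPM under the control label and from 24.6 to 992 CPM under the mutant label, and correlated at 0.53 with the rRNA share and at -0.73 with the summed snoRNA level. Neuron, erythroid and epidermis markers correlated with the snoRNA sum at 0.00, -0.31 and -0.23. The part of muscle in the snoRNA values was not tested.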

How the data were processed

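The authors made stranded, single-end libraries of 50-base reads (Kapa kit) and deposited 1 table of estimated counts per gene from Partek on mm10, per the labels' processing notes. The aligner, the counting rule and its use of strand are not given in the sources used here. Of the deposited expected counts, 66.4% were whole numbers (within 0.001), and the lowest sum of a gene was 10. A size selection of fragments, which bears on short RNAs, is not given either. Counts were rounded and tested with edgeR 4.0.16 (R 4.3.3), with its filter on low counts, TMM scaling and the quasi-likelihood test. P-values were adjusted by Benjamini-Hochberg over all genes, with a threshold of 0.05. DESeq2 1.42.0, limma 3.58.1, other scalings and filters, the replicate number as a block and leaving out each library were alternatives. Log2 CPM used a prior count of 0.5. A count of 3 corresponds to 0.103 to 0.139 CPM. The fit on the rRNA share left out rRNA genes and kept the label as a term.

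Member positions, hosts and sequences came from GENCODE M21, matched by symbol and start (50 of 50 members). Members, lists and tests were chosen with earlier results of these data known. Members were named where they passed a test, were among the 12 with the highest mean CPM, had groups that did not overlap, had extreme slopes or were set by name (U3, U17, named scaRNAs). Others are named as examples chosen after their values were seen. All p-values measure the spread between these libraries.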

Additional observations from a re-analysis of the deposited data

Results flagged for a closer look

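Within each label's 5 libraries, 28 sets of values were checked for a library far from the others, and 2 stood out, where chance gives about 1 in 20. Gm23119 was at 1.11 CPM in control-labelled library 3, below the 1.65 to 1.84 CPM of the other 4. Snora57 was at 0.186 CPM (4 counts) in mutant-labelled library 1, below the 0.428 to 0.486 CPM of the other 4.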

How the results depend on the processing

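No member passed an adjusted p of 0.05 under any of the alternatives run, in either fit. The count of all genes called between labels moved from 3 to 97 with DESeq2's Wald test and to 1 with library size only, with the rRNA share as a covariate or with the replicate block, and from 1 to 6 when a library was left out. The labels do not say which libraries are littermates. The replicate numbers were not taken as pairs, since the correlations of same-numbered deviations ran from -0.211 to 0.141, and no sample correlated best with its own number. Genes called on the rRNA share fell from 19 to 0 with the replicate block and ranged from 0 to 47 when a library was left out, 47 without mutant-labelled library 2. The log2 fold change of Fgfr2 kept its sign but lost its call with library size only (0.63), no filter (0.67), the rRNA share as a covariate (0.68) and the replicate block (0.68), and lay between 0.63 and 0.75 when a library was left out, with calls lost in 8 of 10 cases. Signs near 0 turned. Gm23119 went to 8.08e-06 with at least 10 counts in every library, to 0.0178 with the rRNA share as a covariate, and to between -0.11 and 0.10 when a library was left out. Scarna17 went to -0.00858 with library size only and to between -0.0730 and 0.128 when a library was left out, Snora57 to between -0.216 and 0.0723, and Snord22 to between -0.16 and 0.63. The slope of Snord22 went from -1.31 to -0.50 (SE 0.70) with the replicate block. Slopes on the share turned for Scarna17 with the replicate block (0.00683), and when a library was left out for Gm22009 (-0.00953 to 0.457), Gm23119 (-0.490 to 0.0731) and Scarna2 (-0.171 to 0.0383). The correlation of the summed level with the share moved to -0.51 without members that overlap exons and U3, a choice made after seeing the data, and lay between -0.83 and -0.57 when a library was left out. The causes were not tested. At these counts 43 of the 50 rows fell below the filter. They include the Rnu3b rows, over which 275.5 counts had been divided evenly. Whether depth or capture set the low counts of the others was not tested.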
